A study of Homo sapiens with 6 samples.

Results

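The genes described here are 33 genes that the literature reports as regulated by EWSR1-FLI1, the fusion transcription factor of Ewing tumor, and they were chosen by name. Of them, 27 are reported as activated by the fusion and 6 as repressed by it. A probe set with a single gene symbol was found for 31 of the 33, of 18417 genes measured in all: 25 activated and 6 repressed genes. NR0B1 and EGR2 had none and were not analysed here. Each of the 31 genes had 1 such probe set.

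RNA came from A673 and SK-N-MC, established human Ewing tumor cell lines that both carry the EWSR1-FLI1 fusion. Each line gave 3 arrays: 1 of cells given a control siRNA, 1 with STEAP1 siRNA 2 and 1 with STEAP1 siRNA 3. All cells, controls included, grew in RPMI1640 with serum and were exposed to siRNA at 5 nM for 48 h. The numbers 2 and 3 in the labels of the silenced arrays are read here as siRNA numbers that are the same in both lines. Of the controls, only that of A673 carries a number in its label, and the labels do not say if the control siRNA was the same in both lines. Each line is a single culture model, and nothing in the labels tells whether the arrays of a line stem from separate cultures, so the spread behind each p-value may be technical. STEAP1 encodes a membrane protein of the metalloreductase family and is itself a reported target of the fusion. The comparisons ask whether genes under the fusion's control followed when STEAP1 was lowered, and how far they differed between the lines.

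EWSR1-FLI1 joins the activating part of EWSR1, an RNA-binding protein, to the DNA-binding domain of FLI1, a factor of the ETS family. The fusion recognizes the ETS core GGAA. At tandem GGAA repeats it opens chromatin and raises transcription, and at many other loci it lowers the genes of mesenchymal cells. Activated targets include developmental transcription factors, neural signalling genes and enzymes, and repressed ones include genes of matrix and adhesion.

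The promoters of 4 genes are shown, because these genes carried the largest difference between the lines in each reported class (GSTM4, VIM), the smallest p between the siRNAs (ITM2A) and the tandem repeat found in the search (TNC). Each is the 250 bases before the RefSeq gene start in GRCh38.p14, 5′ to 3′ on the gene's strand, with GGAA and its reverse complement in capitals. TNC lies at chr9:115118158-115118407 on the minus strand, GSTM4 at chr1:109655849-109656098 on the plus strand, VIM at chr10:17227991-17228240 on the plus strand and ITM2A at chrX:79367335-79367584 on the minus strand.
TNC: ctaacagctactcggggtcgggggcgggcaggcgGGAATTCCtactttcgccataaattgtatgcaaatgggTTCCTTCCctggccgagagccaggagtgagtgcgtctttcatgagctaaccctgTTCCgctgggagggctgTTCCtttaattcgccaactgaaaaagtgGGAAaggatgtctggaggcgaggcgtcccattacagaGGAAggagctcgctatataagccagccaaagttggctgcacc
GSTM4: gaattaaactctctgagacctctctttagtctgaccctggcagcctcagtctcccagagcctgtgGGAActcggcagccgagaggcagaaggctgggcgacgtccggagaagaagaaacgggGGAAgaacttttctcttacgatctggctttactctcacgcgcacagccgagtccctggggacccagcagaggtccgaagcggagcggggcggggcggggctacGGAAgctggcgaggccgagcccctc
VIM: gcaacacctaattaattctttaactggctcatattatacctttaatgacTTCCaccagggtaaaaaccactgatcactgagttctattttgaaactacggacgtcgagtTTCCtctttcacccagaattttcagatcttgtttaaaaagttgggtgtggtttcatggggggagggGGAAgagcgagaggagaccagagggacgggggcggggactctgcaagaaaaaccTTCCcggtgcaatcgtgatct
ITM2A: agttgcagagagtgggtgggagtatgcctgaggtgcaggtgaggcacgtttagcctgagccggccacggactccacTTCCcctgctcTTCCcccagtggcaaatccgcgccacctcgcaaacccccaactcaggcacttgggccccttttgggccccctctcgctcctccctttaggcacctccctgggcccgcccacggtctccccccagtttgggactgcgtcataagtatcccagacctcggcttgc

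RefSeq windows of 300 bases, which also hold 50 bases after the gene start, were found for 26 of the 31 measured genes, 34 windows in all because some genes have several starts. GGAA was searched on both strands, and tandem hits also count as 2 hits of the core. The core occurred in 30 of the 34 windows (88.24%) and in 95.45% of 35116 windows of all genes. The tandem GGAAGGAA occurred in 1 of the 34 windows (2.94%) and in 3.67% of all windows. That 1 was TNC, where it lies on the opposite strand and begins 178 bases before the gene start. The tandem searched holds only 2 cores, and repeats outside these windows were not searched. These counts therefore do not tell which genes have a repeat that the fusion binds. The windows without the core were those of BCL11B, POU3F1 and PRKCB and 1 of the windows of NKX2-2.

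Levels are given as log2 of the intensity that was deposited, without detection calls. Array medians lay between 3.21 and 3.24, and 20 of the 31 genes were above the median of every array. GLI1, MFNG, UPP1, PHLDA1, CD44 and THBS1 were below it in every array, and CCK, STYXL1, TERT, PDGFC and LOX in some, so their folds are uncertain. Adding 16 intensity units before the log shrinks the differences of such dim genes. The shrunken value is given beside some of the results, and other differences of dim genes may shrink as much. Each array averages over all cells of a culture, so fewer cells expressing a gene and less RNA per cell cannot be told apart. Pearson correlations over all genes ran from 0.986 to 0.993 within a line and from 0.946 to 0.949 between lines. The interferon-induced gene MX1 had a level of 7.75 in control SK-N-MC cells but 2.65 (siRNA 2) and 5.57 (siRNA 3) after silencing, and between 1.79 and 1.98 in A673. That control array enters every SK-N-MC response below, and its part in the responses was not tested.

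STEAP1, the siRNA target, was checked first. Of its control level, siRNA 2 left 12.7% and siRNA 3 left 18.7% in SK-N-MC, while A673 kept 30.8% and 32.1%. Its own adjusted p across both lines was 0.293. The Ewing tumor markers CD99, EWSR1, FLI1 and NKX2-2 were above the array median in all 6 arrays. Measured markers of leukocytes (4 genes) and of endothelial cells (4 genes) were below it in all 6 arrays. Of 5 epithelial markers, KRT8 and KRT18 were above it in all arrays, and EPCAM, CDH1 and KRT19 below it. Of 5 fibroblast markers, COL1A1 and COL3A1 were above it in all arrays, LUM and PDGFRA below it in all, and DCN above it in 2 of the 6. The probe sets cannot tell the fusion transcript from the normal alleles. EWSR1 differed from its control array by at most 0.09 and FLI1 by at most 0.12. FLI1 stood between 3.78 and 4.04, close above the array medians, so low signal may hide a change in it.

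The lines differed in 16 of the 31 genes (51.6%), beside 24.8% of all genes, in a limma fit with terms for cell line and silencing (Benjamini-Hochberg adjusted p under 0.05). Higher in A673 were 11 of the 31, beside 13.5% of all genes, and higher in SK-N-MC were 5, beside 11.4% of all genes. Of the activated genes 8 were called on the A673 side and 4 on that of SK-N-MC, and of the repressed genes 3 and 1. Calls were more frequent among brighter genes: 42.5% of the 7413 genes whose mean log2 reached 4 were called in a fit limited to them, beside 11 of the 21 listed genes (52.4%) at that level. The median difference over the 31 genes was 0.16, beside -0.02 over all genes. The 3 arrays of A673 lay entirely above those of SK-N-MC in 12 of the 31 genes (19.4% of all genes) and entirely below them in 4 (18.5% of all genes).

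**Figure D1:**
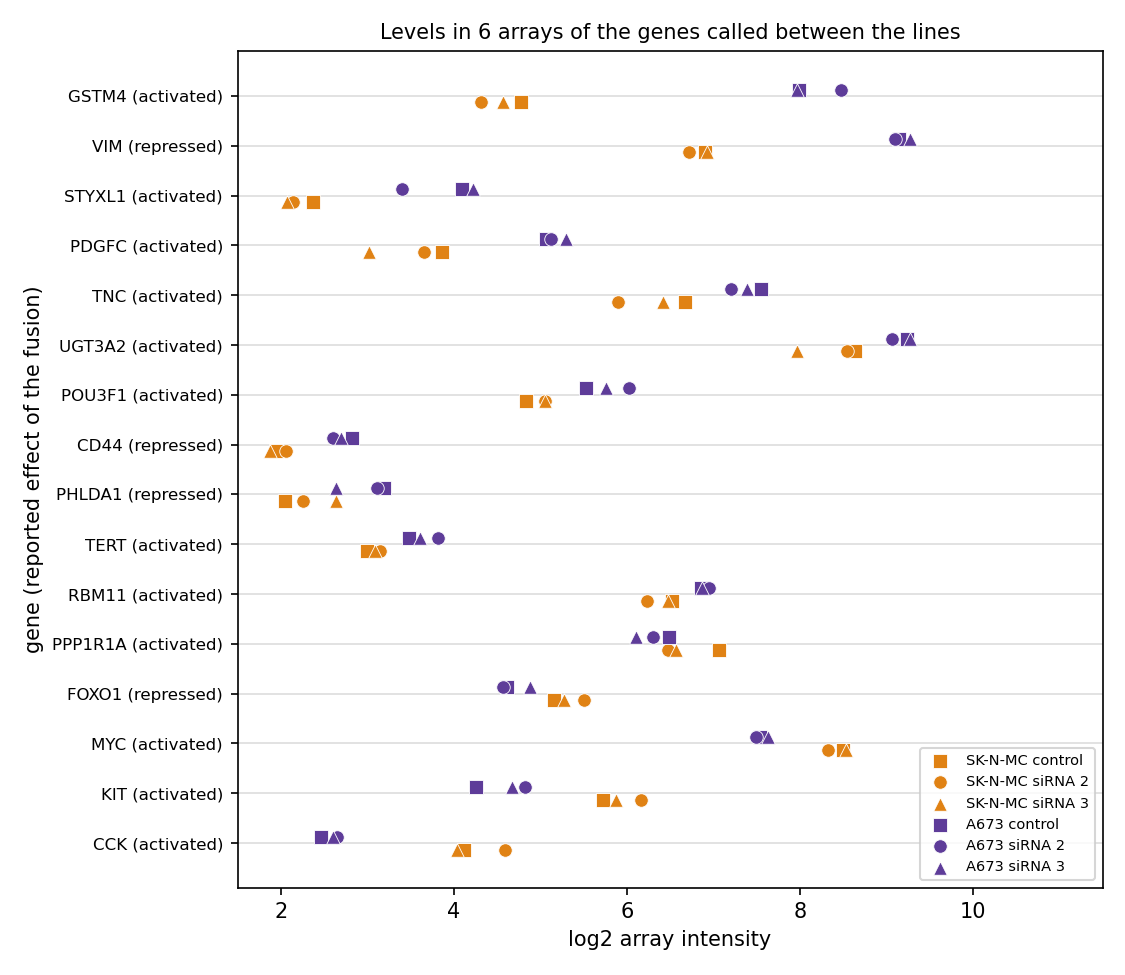
Log2 array intensity (x axis) of the 16 genes called between the lines (y axis, with the reported effect of the fusion), 1 point per array. Orange points are SK-N-MC, purple points A673, squares control arrays, circles siRNA 2 and triangles siRNA 3. The colours do not overlap in 15 rows, though in that of PHLDA1 the siRNA 3 arrays of both lines lie at 2.64. In that of PPP1R1A the SK-N-MC siRNA 2 array (6.48) lies just below the A673 control array (6.49).

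Among the activated genes called higher in A673 were enzymes, a growth factor, a matrix protein and regulators of RNA and transcription. GSTM4, a glutathione transferase, had levels of 4.77 (control), 4.31 (siRNA 2) and 4.56 (siRNA 3) in SK-N-MC. In A673 it stood at 7.99, 8.48 and 7.97 in the same order. The groups were far apart, with a 12.1-fold higher level in A673 (log2 difference 3.60, SE 0.18, limma adjusted p = 5.61e-06). GSTM4 has family members of similar sequence: GSTM1 differed by 3.01 (SE 0.23) and GSTM2 by 1.19 (SE 0.12), so which of these genes the signal came from is uncertain.

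STYXL1, a phosphatase-like protein without activity, stood at 2.38, 2.14 and 2.07 in SK-N-MC and at 4.10, 3.40 and 4.23 in A673, with control, siRNA 2 and siRNA 3 in this order, as in all such triplets below. The A673 siRNA 2 array was the lowest of its line and still above every SK-N-MC array (log2 difference 1.71, SE 0.20, limma adjusted p = 3.98e-04). With the added units its difference was 0.60. PDGFC, a ligand of platelet-derived growth factor receptors, stood at 3.86, 3.65 and 3.01 in SK-N-MC and at 5.07, 5.12 and 5.30 in A673. Its log2 difference was 1.65 (SE 0.20, limma adjusted p = 5.31e-04), and 0.91 with the added units. TNC, the matrix glycoprotein tenascin C, stood at 6.67, 5.90 and 6.42 in SK-N-MC and at 7.55, 7.20 and 7.39 in A673. Its groups did not overlap, with a 2.07-fold higher level in A673 (limma adjusted p = 0.00149).

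UGT3A2, a glycosyltransferase, stood at 8.64, 8.55 and 7.97 in SK-N-MC and at 9.24, 9.06 and 9.27 in A673 (log2 difference 0.80, SE 0.17). POU3F1, a POU-domain transcription factor of neural and Schwann cell development, stood at 4.83, 5.06 and 5.05 in SK-N-MC and at 5.52, 6.03 and 5.75 in A673 (0.79, SE 0.12). TERT, the catalytic subunit of telomerase, stood at 3.00, 3.14 and 3.09 in SK-N-MC and at 3.48, 3.81 and 3.61 in A673 (0.56, SE 0.11, and 0.22 with the added units). These 3 genes did not overlap between the lines, and their limma adjusted p-values lay between 0.00146 and 0.00852. RBM11, a splicing regulator, stood at 6.52, 6.23 and 6.48 in SK-N-MC and at 6.86, 6.94 and 6.87 in A673 (0.48, SE 0.12, limma adjusted p = 0.0179). Its call was lost without the A673 siRNA 2 array (0.44, adjusted p = 0.0745) or the A673 siRNA 3 array (0.48, adjusted p = 0.0627).

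Higher in SK-N-MC among the activated genes were CCK, KIT, MYC and PPP1R1A. CCK, the neuropeptide cholecystokinin, stood at 4.12, 4.59 and 4.03 in SK-N-MC and at 2.47, 2.65 and 2.60 in A673. All 3 A673 arrays were below their array medians. The log2 difference was -1.67 (SE 0.15, limma adjusted p = 1.12e-04), and -0.68 with the added units. KIT, the receptor of stem cell factor, stood at 5.73, 6.17 and 5.88 in SK-N-MC and at 4.26, 4.83 and 4.68 in A673, a 2.53-fold difference (limma adjusted p = 1.34e-04). MYC, a growth-promoting transcription factor, stood at 8.50, 8.33 and 8.53 in SK-N-MC and at 7.54, 7.49 and 7.64 in A673, a 1.86-fold difference (limma adjusted p = 6.33e-04). For CCK, KIT and MYC every SK-N-MC array was above every A673 array.

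PPP1R1A, an inhibitor of protein phosphatase 1, stood at 7.06, 6.48 and 6.57 in SK-N-MC and at 6.49, 6.30 and 6.11 in A673. The groups met at their edges (log2 difference -0.41, SE 0.12, limma adjusted p = 0.0349). The call was lost without either control array (-0.32, adjusted p = 0.194), without the SK-N-MC siRNA 3 array (-0.41, adjusted p = 0.0851) and without the A673 siRNA 3 array (-0.38, adjusted p = 0.123).

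The repressed genes did not take 1 side. VIM, the intermediate filament protein vimentin of mesenchymal cells, stood at 6.91, 6.72 and 6.92 in SK-N-MC and at 9.15, 9.10 and 9.28 in A673. It was 5.01-fold higher in A673 (SE 0.12 on the log2 scale, limma adjusted p = 5.58e-06), and its arrays were far apart. CD44, a hyaluronan receptor, stood at 1.95, 2.06 and 1.87 in SK-N-MC and at 2.82, 2.60 and 2.69 in A673 (0.75, SE 0.11, limma adjusted p = 0.00162, and 0.18 with the added units). PHLDA1, a pleckstrin-homology-like protein linked to cell survival, stood at 2.05, 2.26 and 2.64 in SK-N-MC and at 3.20, 3.11 and 2.64 in A673 (0.67, SE 0.20, limma adjusted p = 0.0396). Its siRNA 3 arrays both round to 2.64, that of A673 being the higher. Its call was lost without either control array (0.43, adjusted p = 0.235), without the SK-N-MC siRNA 2 array (0.63, adjusted p = 0.101), without the A673 siRNA 2 array (0.60, adjusted p = 0.136) and with 16 intensity units added before the log (0.19, adjusted p = 0.144).

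FOXO1, a forkhead transcription factor that restrains growth, was higher in SK-N-MC, at 5.16, 5.51 and 5.28 beside 4.61, 4.56 and 4.88 in A673 (-0.63, SE 0.13, limma adjusted p = 0.00790, and -0.42 with the added units). LOX, the enzyme that crosslinks collagen, stood at 3.33, 3.28 and 3.08 in SK-N-MC and at 2.40, 2.99 and 3.09 in A673, and was not called (-0.40, SE 0.17, limma adjusted p = 0.138). THBS1, the matrix protein thrombospondin 1, differed by -0.03 (SE 0.15).

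The other 13 activated genes were not called between the lines, with differences from -0.37 for PAPPA to 0.32 for LIPI. Among them were the transcription factors NKX2-2 (-0.21, SE 0.16), a homeodomain repressor on which Ewing cells depend, FEZF1 (-0.02, SE 0.11), BCL11B (-0.11, SE 0.11), ID2 (0.10, SE 0.13) and GLI1, the effector of hedgehog signalling (0.20, SE 0.16). PRKCB, the beta isoform of protein kinase C, differed by 0.23 (SE 0.13) and NPY1R, a receptor of neuropeptide Y, by 0.03 (SE 0.11). ITM2A, a membrane protein, had the smallest difference of all 31 (-0.003, SE 0.22). FCGRT, the neonatal Fc receptor, did not overlap between the lines and was not called (0.28, SE 0.15, limma adjusted p = 0.247).

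**Figure D2:**
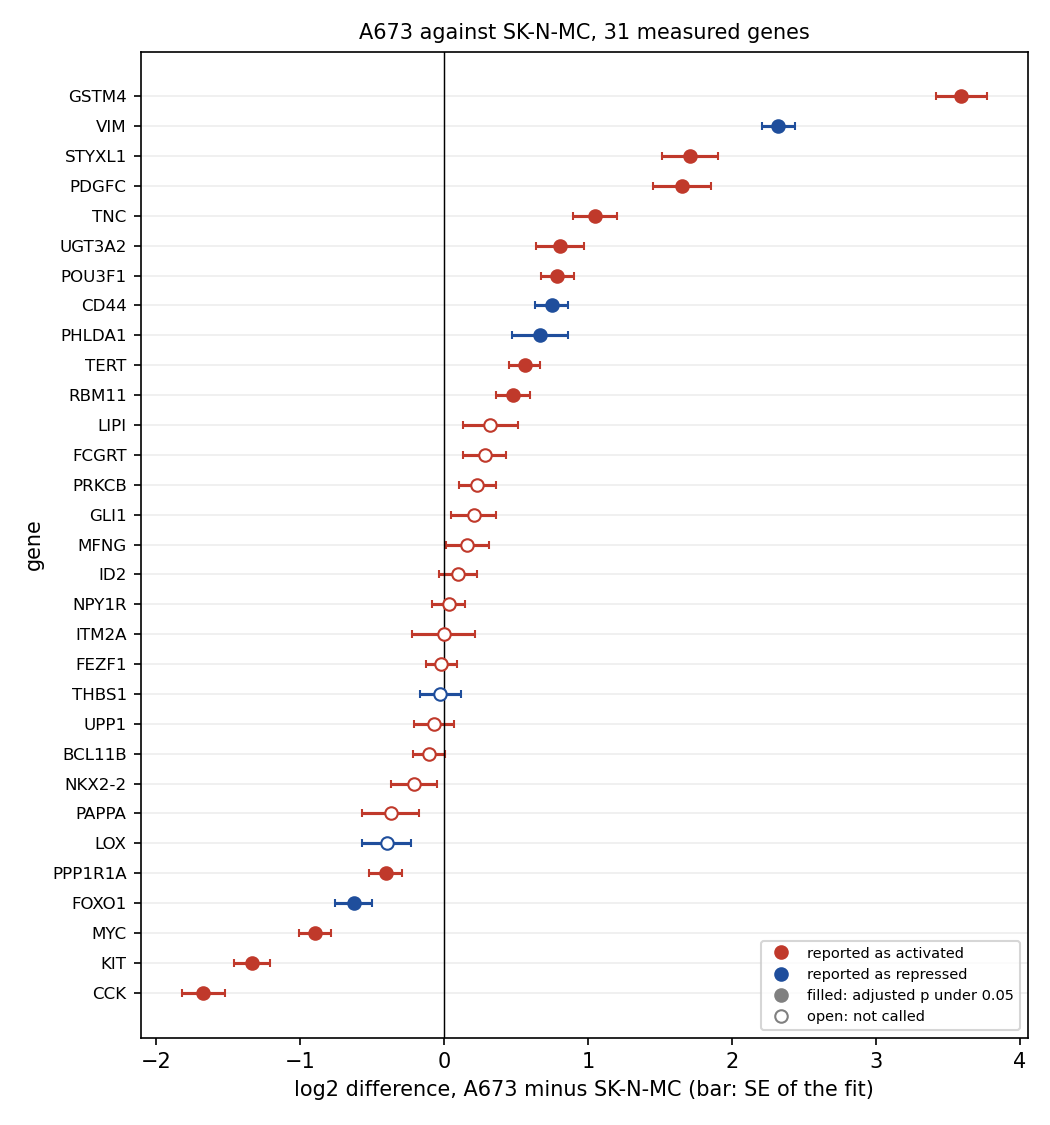
Log2 difference between A673 and SK-N-MC (x axis) for the 31 measured genes (y axis), with the SE of the limma fit as bars. Red marks genes reported as activated by the fusion, blue those reported as repressed, and filled points passed an adjusted p under 0.05. GSTM4 (3.60) and VIM (2.32) lie farthest to the A673 side and CCK (-1.67) and KIT (-1.34) farthest to the SK-N-MC side.

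Silencing of STEAP1 across both lines moved none of the 31 genes past the threshold. limma called 0 of the 31, beside 0% of all genes, with 5 of the 31 (16.1%) and 4.63% of all genes at an unadjusted p under 0.05. All 31 had an adjusted p of at least 0.989. The activated genes had a median difference of -0.05, with 15 of 25 lower, and the repressed genes one of 0.01, with 3 of 6 lower. Over all genes the median was -0.005, with 51.5% lower.

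Lower in all 4 siRNA arrays were 4 of the 31 genes (12.9%), PPP1R1A, ID2, TNC and THBS1, beside 11.2% of all genes. Higher in all 4 were NPY1R, TERT, POU3F1 and KIT (12.9%), beside 10.6% of all genes. Both shares were near those of all genes. The siRNA arrays of a line share 1 control array, so 4 arrays hold 2 independent controls.

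PPP1R1A had the smallest p of the 31, with SK-N-MC responses of -0.58 (siRNA 2) and -0.50 (siRNA 3) and A673 responses of -0.18 and -0.37 (log2 difference -0.41, SE 0.12). Each siRNA array was below its control. KIT differed from control by 0.44 and 0.15 in SK-N-MC, and in A673 by 0.57 and 0.42 (0.39, SE 0.13, and 0.26 with the added units). THBS1, a gene reported as repressed by the fusion, was also lower, at 2.18, 1.54 and 1.38 in SK-N-MC and at 1.76, 1.57 and 1.70 in A673 (-0.43, SE 0.15). Its value came mainly from SK-N-MC, at -0.72 (SE 0.17) beside -0.13 (SE 0.17) in A673, and it was dim in all arrays: with the added units its value was -0.08 across both lines and -0.13 within SK-N-MC.

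POU3F1 differed from control by 0.22 with either siRNA in SK-N-MC, and in A673 by 0.50 and 0.23 (0.29, SE 0.12). TNC differed from control by -0.77 and -0.25 in SK-N-MC, and in A673 by -0.35 and -0.16 (-0.38, SE 0.16). In both lines siRNA 2 gave the lower TNC level. NPY1R stood at 5.43, 5.46 and 5.62 in SK-N-MC and at 5.33, 5.56 and 5.70 in A673 (0.20, SE 0.12).

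Within SK-N-MC, limma called 0 of the 31 genes, beside 0.00543% of all genes, and 2 of the 31 had an unadjusted p under 0.05, beside 5.12% of all genes. Of the activated genes 18 of 25 were lower, with a median of -0.15, beside 50.9% lower and a median of -0.004 over all genes. With siRNA 2, 10 of the 31 were lower by at least 0.3 (32.3%, beside 15% of all genes): NKX2-2, LIPI, PPP1R1A, GSTM4, PAPPA, ID2, FCGRT, ITM2A, TNC and THBS1. With siRNA 3, 7 were lower by that much (22.6%, beside 10.9% of all genes): PRKCB, PPP1R1A, STYXL1, UGT3A2, PDGFC, UPP1 and THBS1. PPP1R1A and THBS1 were on both lists. These shares stand beside genes of every brightness, and shares limited to brighter genes were not taken. In SK-N-MC the median of siRNA 2 minus siRNA 3 was -0.07 over the 7413 genes whose mean log2 reached 4, beside 0.0002 over all genes. Higher by at least 0.3 were CCK, KIT and FOXO1 with siRNA 2 (9.68%, beside 12.2% of all genes) and PAPPA and PHLDA1 with siRNA 3 (6.45%, beside 9.2% of all genes).

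NKX2-2 stood at 6.15, 5.57 and 5.94 in SK-N-MC, while A673 had 5.57, 5.63 and 5.84. Both siRNA arrays were below the control in SK-N-MC and above it in A673. PDGFC responded by -0.21 and -0.85 in SK-N-MC (-0.53, SE 0.27), so most of its value rested on siRNA 3. UGT3A2 responded by -0.10 and -0.68, again mainly with siRNA 3. LIPI, a lipase, responded by -0.58 and -0.10, mainly with siRNA 2.

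Within A673, limma called 0 of the 31 genes, beside 0% of all genes, and 2 of the 31 had an unadjusted p under 0.05, beside 3.35% of all genes. Of the activated genes 8 of 25 were lower, with a median of 0.12, beside 50.5% lower over all genes. Lower by at least 0.3 were 3 of the 31 with siRNA 2 (9.68%, beside 10.1% of all genes), STYXL1, ITM2A and TNC. With siRNA 3 they were PPP1R1A and PHLDA1 (6.45%, beside 9.69% of all genes). Higher by at least 0.3 were 5 of the 31 with each siRNA (16.1%). They were GSTM4, TERT, POU3F1, KIT and LOX with siRNA 2, beside 8.35% of all genes, and LIPI, NPY1R, KIT, MFNG and LOX with siRNA 3, beside 8.96% of all genes. LOX responded by 0.59 with siRNA 2 and 0.69 with siRNA 3 (0.64, SE 0.18, limma adjusted p = 0.9995). It lay below the median of every A673 array, and with the added units its value was 0.19, below that of KIT (0.29) and POU3F1 (0.28).

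**Figure D3:**
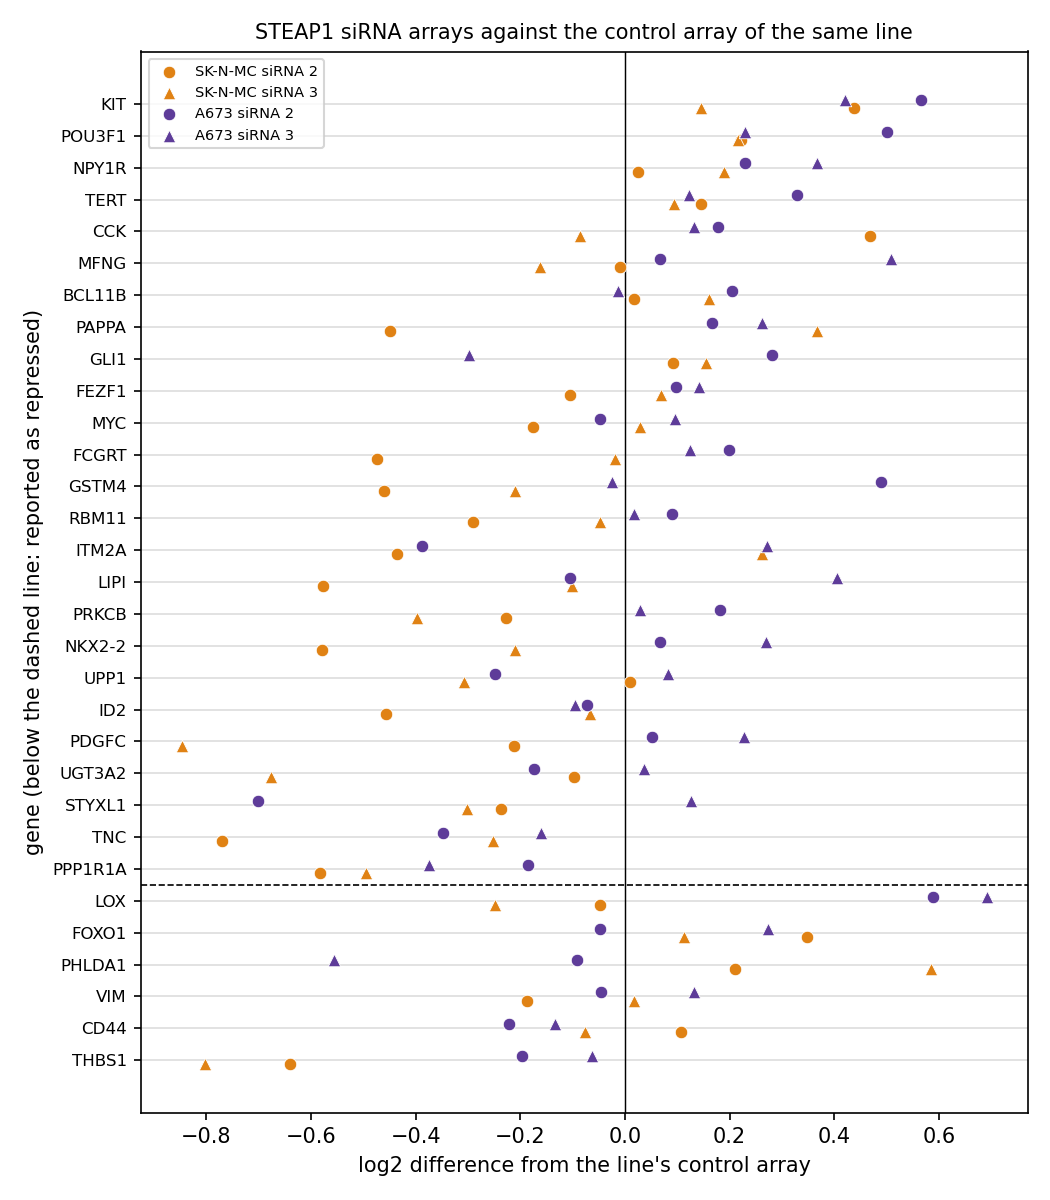
Log2 difference of each siRNA array from the control array of its line (x axis) for the 31 measured genes (y axis), with genes reported as activated above the dashed line and as repressed below it. Orange is SK-N-MC, purple A673, circles siRNA 2 and triangles siRNA 3. PPP1R1A and TNC lie left of 0 in all 4 arrays and KIT and POU3F1 right of it, while for most other genes the points lie on both sides.

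Subtracting the SK-N-MC response from the A673 response gave a negative value for 3 of the 25 activated genes and 3 of the 6 repressed ones, beside 48.95% of all genes. The median was 0.20 over the activated genes and 0.007 over all genes. The signs are not independent, since each rests on the same 2 control arrays. The direct test called 0 of the 31 genes, beside 0% of all genes (limma, all adjusted p at least 0.9998), and 2 of the 31 (6.45%) had an unadjusted p under 0.05, beside 3.86% of all genes. LOX differed by 0.79 (SE 0.25), with both siRNA arrays below the control in SK-N-MC and above it in A673, and by 0.24 with the added units. PHLDA1 had the opposite pattern (-0.72, SE 0.36, and -0.20 with the added units), and stood above its control in SK-N-MC and below it in A673 with both siRNAs. THBS1 differed by 0.59 (SE 0.25, and 0.11 with the added units) and NKX2-2 by 0.56 (SE 0.30, and 0.44).

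The 2 siRNAs were compared with each other without any control array in the difference. limma called 0 of the 31 genes, beside 0% of all genes, and 3 of the 31 (9.68%) had an unadjusted p under 0.05, beside 6.67% of all genes. ITM2A stood at 8.04 with siRNA 2 and 8.74 with siRNA 3 in SK-N-MC, and at 8.07 and 8.73 in A673. The control arrays, at 8.48 and 8.46, lay between them in both lines (log2 difference siRNA 2 minus siRNA 3 -0.68, SE 0.13, limma adjusted p = 0.572). LIPI stood at 6.35 and 6.83 in SK-N-MC and at 6.82 and 7.33 in A673, with siRNA 2 lower in both lines (-0.49, SE 0.17, limma adjusted p = 0.684).

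PAPPA, a protease that cleaves an insulin-like growth factor binding protein, was at 6.09, 5.64 and 6.46 in SK-N-MC and at 5.55, 5.72 and 5.81 in A673. Its difference (-0.46, SE 0.19) came from SK-N-MC, at -0.82 beside -0.10 in A673. On the other side, CCK differed by 0.30 (SE 0.16, and 0.16 with the added units), from 0.55 in SK-N-MC and 0.05 in A673, and KIT by 0.22 (SE 0.14), from 0.29 and 0.15. GLI1, at 1.54, 1.63 and 1.69 in SK-N-MC and at 1.83, 2.11 and 1.53 in A673, differed by 0.26 (SE 0.18, and 0.05 with the added units). Its sign turned without the A673 siRNA 3 array (-0.016).

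Across the 31 genes the difference between the siRNAs had the same sign in both lines for 14 (45.2%), beside 50.9% of all genes. Its Pearson correlation between the lines was -0.002 over the 31 genes and 0.07 over all genes, as a description across genes that share their arrays. Among the 21 whose mean log2 reached 4 it was 0.19, as it was over the 7413 genes at that level. ITM2A and LIPI had the largest differences of 1 sign and like size in both lines, and neither was called.

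**Figure D4:**
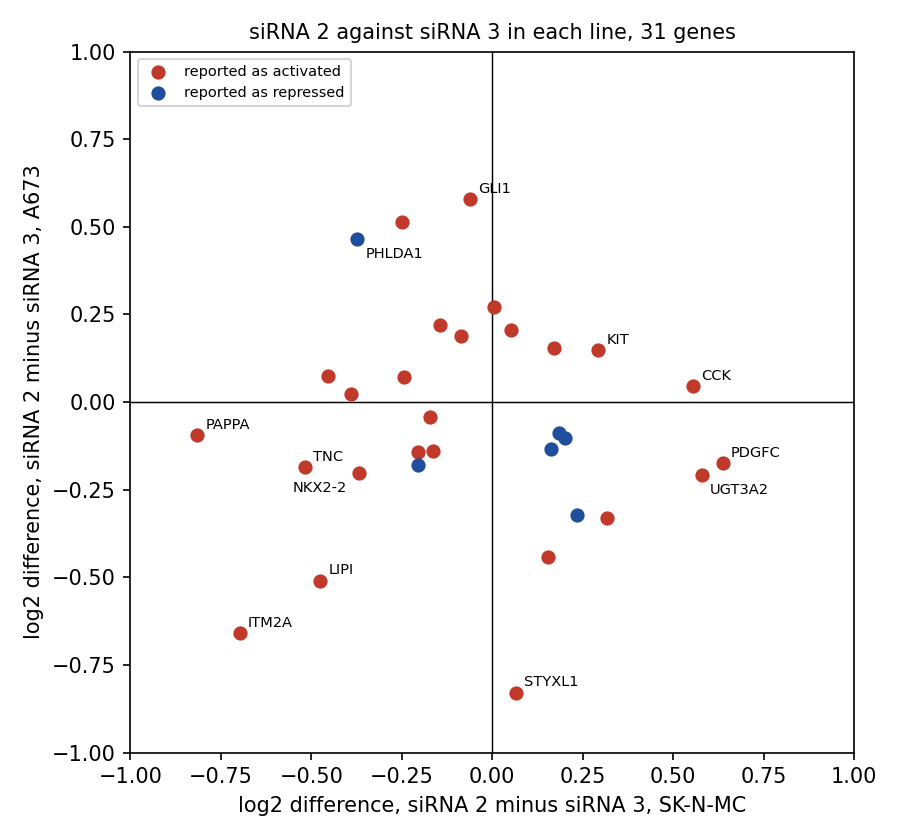
Log2 difference of siRNA 2 minus siRNA 3 in SK-N-MC (x axis) and in A673 (y axis), 1 point for each of the 31 measured genes, red for genes reported as activated by the fusion and blue for repressed. ITM2A (-0.70 and -0.66) and LIPI (-0.48 and -0.51) lie near the diagonal, while PAPPA (-0.82 and -0.10) and STYXL1 (0.07 and -0.83) lie near 1 axis each.

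A further list of genes tied to the fusion was measured beside these. Of 16 others reported as activated, 6 were higher in A673 and 6 in SK-N-MC by limma, beside 13.5% and 11.4% of all genes and 42.5% in either direction of the genes whose mean log2 reached 4, as most of these did, with CCND1, the cell cycle regulator cyclin D1, at a difference of 1.78 (SE 0.14) and LOXHD1, a protein of sensory hair cells, at -2.13 (SE 0.15). Of 5 others reported as repressed, 1 was called, TGFBR2, the type II receptor of TGF-beta, higher in A673 (2.55, SE 0.13). Across both lines silencing called 0 of these 21 genes, beside 0% of all genes. Lower were 11 of the 16 activated and 4 of the 5 repressed genes, beside 51.5% of all genes. TGFBR2, at -0.45 (SE 0.14), had the smallest p of the repressed ones. Between the siRNAs 0 of the 21 were called, beside 0% of all genes. With siRNA 2, 12 of the 16 were lower, beside 51.6% of all genes, and CAV1, the caveolar coat protein, differed by -0.94 (SE 0.17). Of the 7413 genes whose mean log2 reached 4, 2298 were lower with siRNA 2 in both lines and 1748 higher in both.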

How the data were processed

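All 6 arrays were used. Per the submitters' processing notes, the authors used Expression Console 1.1 (Affymetrix) and RMA; the deposited intensity values are linear. The genome build and the step back to that scale are not given in the sources used here. Here log2 was taken with no further normalization.

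The table holds 33297 probe sets, of which 19460 carry 1 gene symbol in the platform annotation. Symbols were updated by gene identifier through RefSeq (GRCh38.p14), and the probe set with the highest mean was kept, which left 18417 genes. The 33 genes, the lists and the tests were chosen with earlier results of these data known.

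limma 3.58.1 in R 4.3.3 (lmFit, eBayes, two-sided, Benjamini-Hochberg over 18417 genes, adjusted p under 0.05) tested cell line and silencing in a fit with both terms (3 residual degrees of freedom), responses within lines and their difference in a fit of 4 group means, and the siRNAs in a fit with a term for each (2 residual degrees of freedom each). Both siRNAs stood as replicates of STEAP1 silencing, and precision is limited by the number of arrays, as each line has 1 control. Named in full were called genes, the 3 smallest p-values per direction and comparison, and genes with 1 sign in all siRNA arrays and a difference of at least 0.3. Each fit was checked on simulated data with planted changes of a smaller and a larger size. The fits within A673 and of the difference of the responses missed most changes of either size. Those within SK-N-MC and between the siRNAs missed most of the smaller changes and many of the larger ones. Those of silencing across both lines and of A673 against SK-N-MC missed many of the smaller changes and some of the larger ones. STEAP1 itself, at a log2 difference of -2.18, was not called across both lines. The absence of calls there therefore does not exclude responses among the 31 genes. Alternatives are in the closing section.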

Additional observations from a re-analysis of the deposited data

How the results depend on the processing

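Alternatives were median centring, a second quantile normalization, a mean log2 of at least 4, 16 intensity units added, the mean over probe sets, a variance trend, each array left out in turn, and the siRNA number as a replicate block. Between the lines, 16 of the 31 genes were called with all arrays, 11 of 21 with the limit of 4, 15 with the added units and 14 to 16 with an array left out. Over the 16 genes called, 192 single values stayed past the threshold and 11 lost their call (PHLDA1, PPP1R1A and RBM11). In the other 5 comparisons, 0 of the 31 were called under every alternative that could be fitted. All but 2 of their single gene values kept their sign. FOXO1 in the difference of the responses ran from -0.279 to 0.042 with an array left out, positive without the A673 siRNA 2 array. GLI1 between the siRNAs ran from -0.016 to 0.532, negative without the A673 siRNA 3 array; the cause was not tested.

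Over all genes, counts within SK-N-MC were 0 with the added units, 5 with the variance trend and 0 to 61 with an array left out, where the spread comes from fewer arrays. The count across both lines was 0 to 1 and that of the difference of the responses 0 to 26. Within a line, leaving out its control array gives no value, and leaving out a siRNA array leaves 1 array per group, assumed to vary like the other line's. The siRNA number is taken to mark the same siRNA in both lines. With it as a replicate block, 16 of the 31 genes and 4720 of all genes were called between the lines. Across both lines and in the difference of the responses, 0 were called. Low signal limits the genes below the array medians.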

Other observations

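Genes listed by name as possible partners or cofactors of the fusion form a further group. Whether each of them, RING1 included, acts with the fusion was not tested. Of 11 measured, limma called 5 lower in A673 than in SK-N-MC (Benjamini-Hochberg adjusted p under 0.05) and 0 higher. The shares of all genes called in these directions were 11.4% and 13.5%. All 11 had a mean log2 above 4, where 42.5% of genes were called in either direction. The count in either direction is near that share, and shares by direction at that level were not taken. The 5 were SMARCC1, a subunit of the BAF chromatin remodeller (-0.82, SE 0.12), HDAC2, a histone deacetylase (-0.79, SE 0.12), CHD4, the remodeller of the NuRD complex (-0.72, SE 0.11), STAG2, a cohesin subunit (-0.63, SE 0.15), and RING1, a Polycomb ligase (-0.57, SE 0.12). Those not called included SMARCA4 (0.06, SE 0.11), the motor of the same BAF complex, HDAC3 (-0.17, SE 0.11) and DHX9 (0.18, SE 0.12), a helicase that binds the fusion. Between the siRNAs, 10 of the 11 were lower with siRNA 2, beside 51.6% of all genes, and 0 were called, beside 0% of all genes. Their median was -0.17, beside -0.006 over all genes. Brighter genes tilted the same way: of the 7413 whose mean log2 reached 4, 2298 were lower with siRNA 2 in both lines and 1748 higher. Silencing across both lines called 0 of the 11, beside 0% of all genes, with 6 of 11 lower, beside 51.5% of all genes.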
